A study of Homo sapiens with 6 samples.

Results

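NEAT1, MALAT1 and 5 RNA-binding proteins of the paraspeckle (SFPQ, NONO, PSPC1, RBM14 and TARDBP) were examined in ACHN cells, a human renal cancer line, after knockdown of OTUD1, a deubiquitinase. The 7 genes were taken by symbol from a table of 58735 genes, and all 7 were among the 15244 genes with enough counts to be tested. ACHN cells had been transfected either with a control siRNA (3 libraries) or with an siRNA against OTUD1 (3 libraries), and their RNA was sequenced. How that RNA was selected for the libraries is not stated in the labels. The labels name 1 cell line and 1 siRNA against OTUD1, and leave unsaid whether the libraries are separate cultures: the p-values then speak only of the spread among these 6 libraries, and that spread may be technical.

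NEAT1 is a long non-coding RNA that stays in the nucleus and holds together the paraspeckle, a body in which RNAs and RNA-binding proteins are retained. Its long form is the scaffold, and SFPQ and NONO, with their relative PSPC1, coat it and stabilise it. MALAT1, transcribed from the neighbouring locus, sits in nuclear speckles beside the splicing factors stored there. The long form of NEAT1 and MALAT1 carry no ordinary poly(A) tail: RNase P cuts off a tRNA-like RNA, and the new end is protected by a triple helix between U-rich motifs and an A-rich tract.

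The ends of the transcripts are shown because they set which RNAs a library can hold and because they are the feature that NEAT1 and MALAT1 share. Both sequences were read from the GENCODE 29 transcripts on build hg38. NEAT1 (ENSG00000245532.8, a lincRNA gene on the + strand of chromosome 11 from 65422774 to 65445540) ends at the cut site, and MALAT1 (ENSG00000251562.8, + strand of chromosome 11 from 65497688 to 65506516) starts 74.9 kb after the start of NEAT1. The last 100 bases of the long form of NEAT1 (chr11:65445441-65445540) and the 100 bases of MALAT1 before its tRNA-like RNA (chr11:65506017-65506116) follow, 5′ to 3′, with every stretch of at least 8 bases that both ends share in capitals.
NEAT1: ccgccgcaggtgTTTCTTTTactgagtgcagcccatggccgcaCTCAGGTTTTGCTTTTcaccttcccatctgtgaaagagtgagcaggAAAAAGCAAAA
MALAT1: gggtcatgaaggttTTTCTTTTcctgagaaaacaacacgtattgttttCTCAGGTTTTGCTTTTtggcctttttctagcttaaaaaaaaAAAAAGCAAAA
The shared stretches are TTTCTTTT, then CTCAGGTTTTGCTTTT, then AAAAAGCAAAA at the very end, in the same order in both RNAs, and they hold U-rich runs and an A-rich run. A global alignment matched 69 of 109 columns (63.3%). Among the last 100 bases of 203677 annotated transcripts, searched on the transcript strand, TTTCTTTT occurred in 1.25% and AAAAAGCAAAA in 0.0462%. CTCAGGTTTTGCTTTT occurred in 1 of those ends, the long NEAT1 transcript, since the annotated MALAT1 transcripts run on past the cut site.

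The tRNA-like RNAs that follow (58 bases at chr11:65445541-65445598 for NEAT1 and 57 bases at chr11:65506117-65506173 for MALAT1) matched in 40 of 59 alignment columns (67.8%).
NEAT1 tRNA-like RNA: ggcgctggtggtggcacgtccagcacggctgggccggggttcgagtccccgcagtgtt
MALAT1 tRNA-like RNA: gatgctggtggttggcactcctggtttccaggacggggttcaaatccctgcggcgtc
The short form of NEAT1, in contrast, ends at a poly(A) signal within the same gene. The last 60 bases of an annotated short transcript (chr11:65426454-65426513) carry AATAAA, in capitals.
NEAT1 short form: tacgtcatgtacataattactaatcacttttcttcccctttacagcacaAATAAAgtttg
The table holds 1 value for the whole NEAT1 gene, so its short and long forms cannot be told apart here. Both tRNA-like RNAs, and the other small features annotated inside NEAT1 and MALAT1 (RF01955, RF01956, RF01957, RF01871 and MIR612), had 0 counts in every library.

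Total counts per library lay between 16753495 and 18993534 for control siRNA and between 17243433 and 21013530 for OTUD1 siRNA, and a floor of 3 counts corresponds to 0.137 to 0.188 CPM. CPM here means counts relative to the library size after TMM scaling. OTUD1 fell from 61, 67 and 65 counts in the controls to 28, 17 and 25 counts after its siRNA, a log2 fold change of -1.69 (SE 0.235, adjusted p = 4.37e-07 with edgeR's quasi-likelihood test and Benjamini-Hochberg adjustment). Of the 11 renal epithelial markers, 2 (CDH6 and LRP2) were at 0 in every library while PAX8, PAX2, KRT8, KRT18, KRT19, EPCAM and VIM were present, and their summed level was 7403 to 7657 CPM in the controls and 4104 to 4219 CPM after OTUD1 siRNA. KRT8 (4112 to 1957 CPM) and KRT18 (1604 to 726 CPM) carried that sum. PAX2, PAX8 and VIM also fell, with log2 fold changes of -1.19, -0.65 and -0.50, while KRT19 and EPCAM rose by 0.41 and 0.14. CA9 had 1 count in 1 control library, and CDH16 had 7 to 14 counts in a library. PTPRC, CD3E and LYZ of leukocytes and KDR of endothelium were at 0 in every library, and the summed markers of leukocytes, endothelium and fibroblasts did not exceed 5.93 CPM in any library. Mitochondrially encoded genes took 5.37 to 5.77% of the counts in the controls and 6.26 to 6.38% after OTUD1 siRNA, and their part in the results was not tested.

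After OTUD1 siRNA, 1 of the 7 genes rose (NEAT1), 4 fell (PSPC1, RBM14, SFPQ and NONO), and 2 did not pass the test (MALAT1 and TARDBP). An adjusted p under 0.05 in edgeR's quasi-likelihood test, adjusted over all 15244 genes, counted as passing. By the same measure 29.3% of all genes tested rose, 31.1% fell and 60.4% passed in either direction, so that 5 of 7 is read against a table in which most genes passed, and no call is taken as particular to these genes. Of the genes called, 48.4% were higher, and with library totals in place of TMM 64.2% were, as that scaling moved the median log2 fold change of all genes tested from 0.01 to 0.13.

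**Figure D1:**
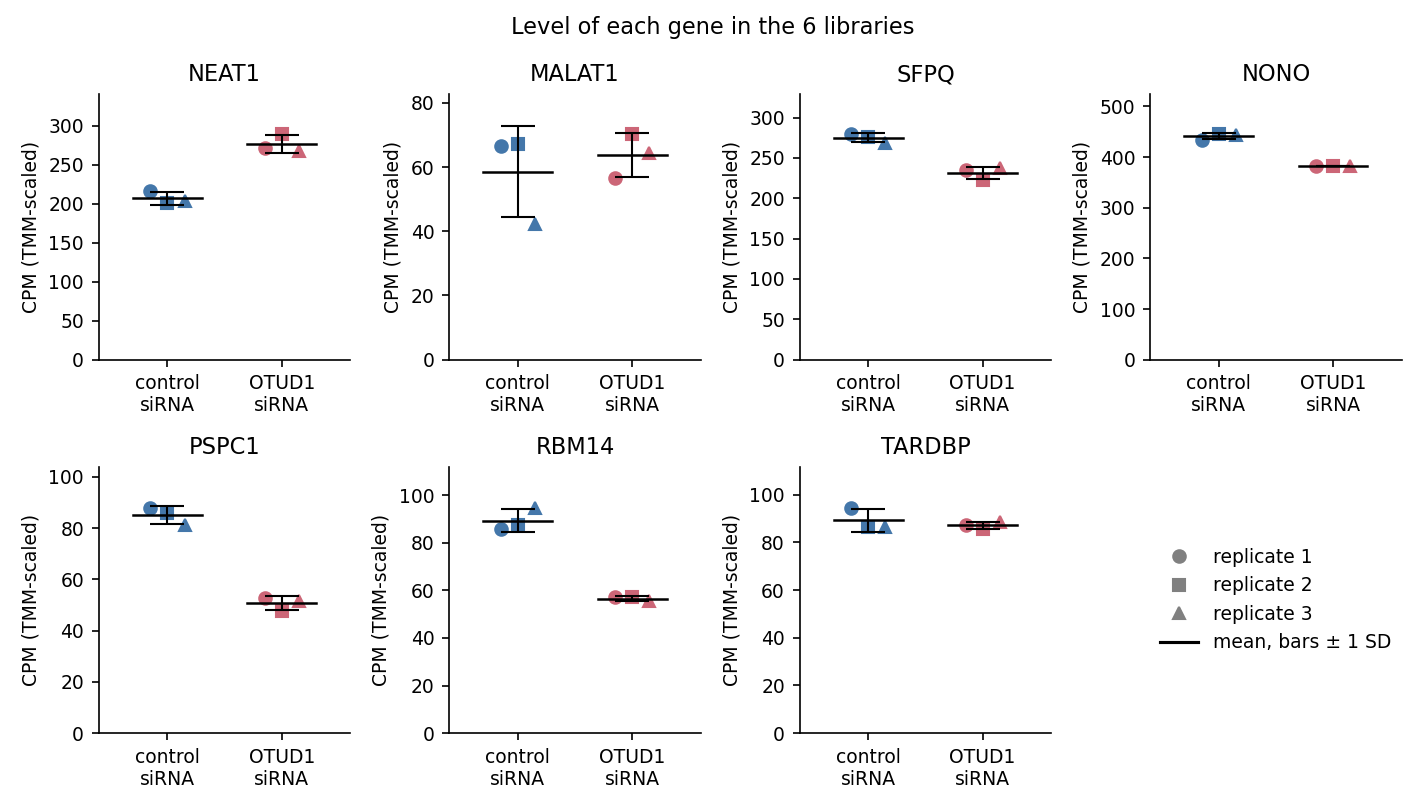
Level of each of the 7 genes in CPM (TMM-scaled, linear axes from 0) in the 3 control siRNA and the 3 OTUD1 siRNA libraries. Points are libraries, with the mean and 1 SD. The groups are apart for NEAT1, SFPQ, NONO, PSPC1 and RBM14 and overlap for MALAT1 and TARDBP, and control replicate 3 is the lowest point for MALAT1 at 42.2 CPM.

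NEAT1 was the member that rose. Its level was 216, 201 and 204 CPM in the control libraries and 272, 289 and 268 CPM in the OTUD1 siRNA libraries. Every OTUD1 siRNA library lay above every control library. The mean went from 207 ± 8.25 to 277 ± 11.2 CPM (SD, n = 3 each), which is 1.34-fold higher, a log2 fold change of 0.42 (SE 0.0368, adjusted p = 5.62e-11, edgeR). In bulk RNA, a change in the number of cells that make a transcript and a change in the RNA made per cell cannot be told apart.

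MALAT1, the speckle RNA, did not pass the test. It stood at 66.5, 67.1 and 42.2 CPM in the controls and at 56.7, 70.3 and 64.4 CPM after OTUD1 siRNA. The groups overlapped, and the lowest and the highest value of the 6 came from control replicate 3 and OTUD1 siRNA replicate 2. The means were 58.6 ± 14.2 and 63.8 ± 6.84 CPM (SD, n = 3 each), a log2 fold change of 0.12 (SE 0.0986, adjusted p = 0.296, edgeR).

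MALAT1 was unusually uneven within the groups. Its SD within groups, 0.293 on the log2 scale, was larger than that of 99.8% of the 9690 genes with a mean of at least 10 CPM. Control replicate 3 lay 1.58-fold below the other controls, and only 3 of the 9690 genes lay further below their other controls in that library. Without that library the log2 fold change of MALAT1 was -0.07 (adjusted p = 0.422), without control replicate 2 it was 0.24 (adjusted p = 0.041), and with library totals in place of TMM it was 0.25 (adjusted p = 0.0273, all edgeR). The direction and the call of MALAT1 thus rest on the choice of library and of scaling.

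SFPQ, NONO and PSPC1 form the DBHS family, proteins that pair with each other and bind RNA and DNA in the nucleus. All 3 fell, by unequal amounts, although the direction of NONO turned under quantile normalization. PSPC1 (chromosome 13, 19674752 to 19783019, - strand) fell most, from 88.0, 85.9 and 81.0 CPM in the controls to 52.8, 47.7 and 51.7 CPM. The groups were far apart. The means were 85.0 ± 3.56 and 50.7 ± 2.68 CPM (SD, n = 3 each), 1.67-fold lower, with a log2 fold change of -0.74 (SE 0.0514, adjusted p = 3.48e-13, edgeR). The size of this change exceeded that of 82.5% of all genes tested.

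SFPQ (chromosome 1, 35176378 to 35193148, - strand), which the long NEAT1 RNA needs in order to accumulate, stood at 280, 276 and 269 CPM in the controls and at 234, 223 and 237 CPM after OTUD1 siRNA. No control library reached down to an OTUD1 siRNA library. The means were 275 ± 5.47 and 231 ± 7.80 CPM (SD, n = 3 each), 1.19-fold lower, with a log2 fold change of -0.25 (SE 0.0341, adjusted p = 3.12e-07, edgeR). The decrease was smaller under other scalings, -0.12 with library totals and -0.09 after quantile normalization, and passed the test under both.

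NONO (chromosome X, 71283192 to 71301168, + strand), the usual partner of SFPQ, stood at 435, 445 and 443 CPM in the controls and at 383, 382 and 383 CPM after OTUD1 siRNA. The OTUD1 siRNA libraries were almost equal to each other and all below the controls. The means were 441 ± 5.62 and 383 ± 0.587 CPM (SD, n = 3 each), 1.15-fold lower, with a log2 fold change of -0.20 (SE 0.0293, adjusted p = 6.6e-07, edgeR). With library totals the change was -0.08, and after quantile normalization it was 0.01 (adjusted p = 0.768, limma), so the decrease of NONO depends on how the libraries are scaled. Within-group SD on the log2 scale was 0.0131 for NONO, and 0.599% of the 9690 genes had a smaller one.

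RBM14 (chromosome 11, 66616582 to 66627347, + strand), a coactivator with a prion-like domain that paraspeckles need, lies 1193.8 kb from NEAT1 on the same chromosome. It fell from 85.5, 87.4 and 94.7 CPM in the controls to 57.0, 57.1 and 55.5 CPM. The OTUD1 siRNA libraries lay close together and well below the controls. The means were 89.2 ± 4.85 and 56.5 ± 0.892 CPM (SD, n = 3 each), 1.58-fold lower, with a log2 fold change of -0.66 (SE 0.049, adjusted p = 1.69e-12, edgeR). The size of this change exceeded that of 78.5% of all genes tested.

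TARDBP (chromosome 1, 11012344 to 11026420, + strand) encodes TDP-43, a protein that binds UG-rich RNA and acts on the choice between the short and the long NEAT1 form. It stood at 94.6, 86.7 and 86.4 CPM in the controls and at 87.3, 85.7 and 88.6 CPM after OTUD1 siRNA. Apart from control replicate 1 the 6 libraries were nearly level, and the groups overlapped. The means were 89.2 ± 4.66 and 87.2 ± 1.46 CPM (SD, n = 3 each), a log2 fold change of -0.03 (SE 0.0454, adjusted p = 0.554, edgeR), and the sign turned under 4 of the 14 alternatives, among them library totals (0.10) and quantile normalization (0.07).

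Other genes and copies that share sequence with the 7 genes took few counts. RBM14-RBM4, a readthrough gene that overlaps RBM14, had 9, 10 and 5 counts in the controls and 16, 11 and 12 after OTUD1 siRNA. PSPC1-AS2, an antisense gene at the end of PSPC1, had 1 to 9 counts in a library, and the NONO pseudogene NONOP2 had 1 to 8. AP000769.2, antisense inside MALAT1, and AL109811.4, which overlaps TARDBP, had 0 counts in every library. The strand setting of the counting is not known, so reads of a gene and of its antisense partner cannot be told apart. The counting tool is not known either. Low counts here therefore do not show that no reads were lost where genes overlap.

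**Figure D2:**
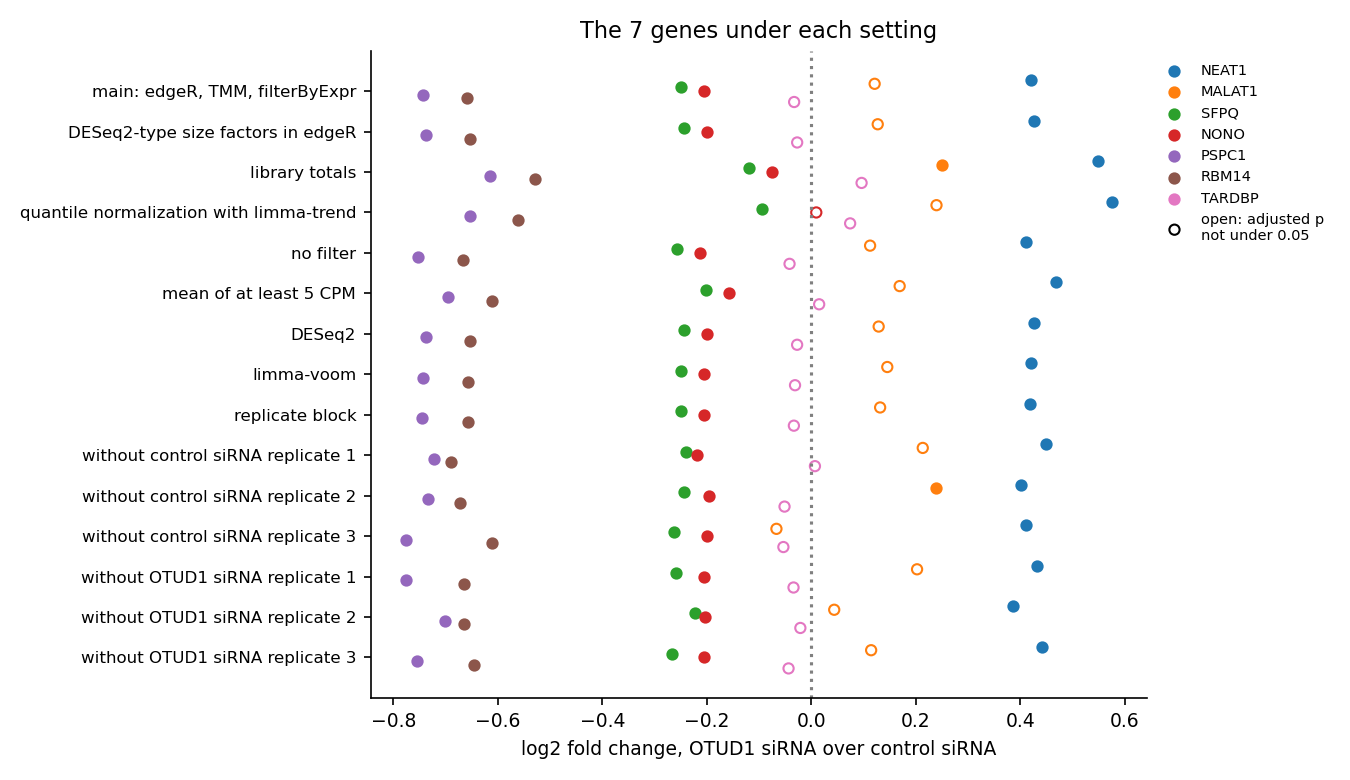
Log2 fold change of each of the 7 genes (horizontal axis, OTUD1 siRNA over control siRNA) under 15 settings (vertical axis: the reported fit and 14 alternatives). Filled points passed an adjusted p of 0.05 and open points did not. NEAT1 stays on the right between 0.39 and 0.57, PSPC1 and RBM14 stay on the left, NONO reaches 0.01 after quantile normalization, and MALAT1 and TARDBP lie on both sides of 0.

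Per kilobase of transcript, a scale that allows for transcript length, the order in the controls ran from NONO to MALAT1. It is an order of counts in these libraries. MALAT1 and the long NEAT1 form carry no ordinary poly(A) tail, and how RNA was selected is not stated in the labels. The part of RNA selection in their low places was not tested. NONO stood at 163 ± 2.07 CPM per kb and SFPQ at 73.4 ± 1.46. PSPC1 stood at 35.3 ± 1.48, RBM14 at 31.5 ± 1.71 and TARDBP at 16.6 ± 0.869 CPM per kb. NEAT1 stood at 9.09 ± 0.363 and MALAT1 at 6.73 ± 1.63 CPM per kb (SD, n = 3 for each gene). These values use the lengths of NONO-201 (2713 bases), SFPQ-201 (3747), PSPC1-201 (2407), RBM14-201 (2828), TARDBP-201 (5367), NEAT1-202 (22743) and MALAT1-202 (8708).

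In the controls the ranges of neighbours in that order did not overlap, but some lay close. PSPC1 and RBM14 came closest, with 33.7 to 36.6 CPM per kb for PSPC1 and 30.3 to 33.5 for RBM14, and NEAT1 (8.83 to 9.51) and MALAT1 (4.84 to 7.70) lay less than the range of MALAT1 apart. After OTUD1 siRNA PSPC1 and RBM14 overlapped, at 19.8 to 21.9 and 19.6 to 20.2 CPM per kb. NEAT1 rose to 12.2 ± 0.494 CPM per kb (SD, n = 3), while MALAT1 stood at 7.32 ± 0.785. The place of NEAT1 depends on its form: with the short NEAT1-201 (3441 bases) as the length, its level would be 60.1 ± 2.40 CPM per kb in the controls and 80.4 ± 3.26 after OTUD1 siRNA, above PSPC1 and, after OTUD1 siRNA, above SFPQ (61.8 ± 2.08).

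Ratios of counts within a library do not depend on the scaling between libraries. There were 3 against 3 libraries, so the exact permutation test, two-sided, cannot give a p under 0.1, and p-values were adjusted over the 4 ratios. The ratio of PSPC1 to NONO was 0.202, 0.193 and 0.183 in the controls and 0.138, 0.125 and 0.135 after OTUD1 siRNA, a change to 0.688 of the control value. All OTUD1 siRNA libraries lay below all controls (exact permutation p = 0.1, adjusted 0.2), so PSPC1 was lower relative to its partner in each of them.

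NEAT1 relative to the summed counts of SFPQ and NONO went from 0.303, 0.278 and 0.286 to 0.441, 0.479 and 0.432, which is 1.56-fold higher (exact permutation p = 0.1, adjusted 0.2). Again the groups did not overlap. SFPQ relative to NONO was 0.643, 0.621 and 0.607 in the controls and 0.613, 0.582 and 0.619 after OTUD1 siRNA, and the groups overlapped (exact permutation p = 0.4, adjusted 0.4). NEAT1 relative to MALAT1 was 3.25, 2.99 and 4.83 in the controls and 4.80, 4.12 and 4.17 after OTUD1 siRNA (exact permutation p = 0.4, adjusted 0.4), and control replicate 3 alone made the groups overlap.

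**Figure D3:**
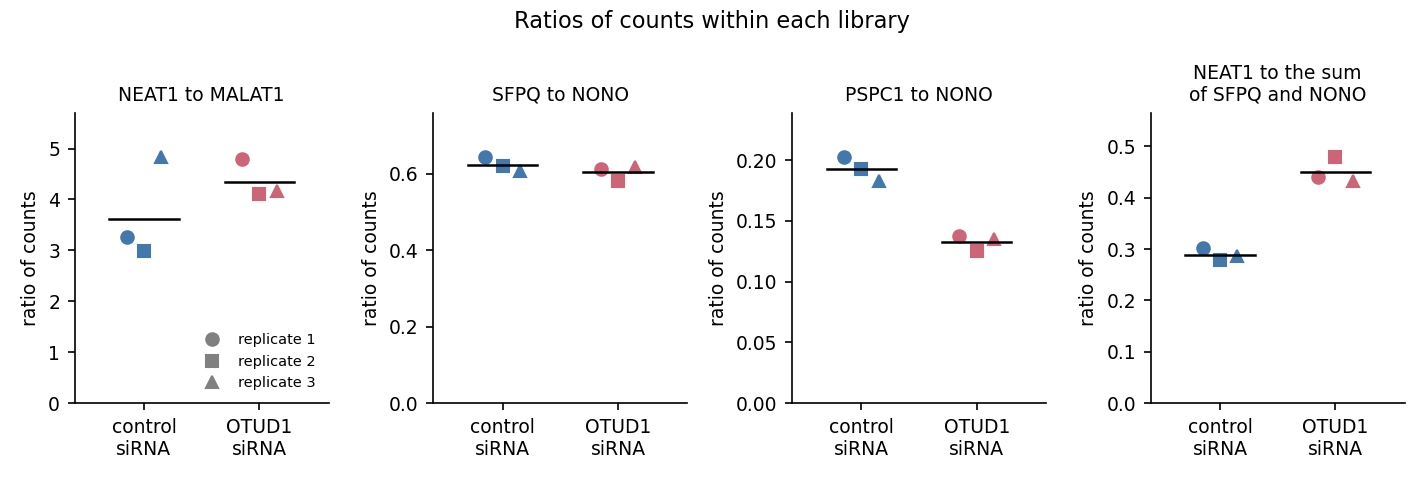
Ratios of raw counts between the genes within each library (linear axes from 0), with points for libraries and a line for the geometric mean of each group. PSPC1 to NONO and NEAT1 to the sum of SFPQ and NONO separate the groups, while SFPQ to NONO and NEAT1 to MALAT1 overlap, the latter through control replicate 3 at 4.83.

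Histone genes and small structured RNAs were listed beside NEAT1 and MALAT1 because many of their transcripts end without a poly(A) tail, and how RNA was selected for the libraries is not stated in the labels. Of 99 such genes with a value in the table (all genes named HIST plus 9 other RNAs), 21 had enough counts to test, and 16 of these rose, 0 fell and 5 did not pass the test (all genes tested: 29.3% rose and 31.1% fell). All 16 that rose were histone genes, and several of them, such as HIST1H2BK, HIST1H2AC and HIST2H2BE, are known to make polyadenylated mRNA as well, so the count is one of histone genes and not of RNAs shown to lack a tail. Over the 21 tested genes of the list the median log2 fold change was 1.04, against 0.01 over all genes tested. Without a filter on low counts, which brings in more of the list, it was 0.61. HIST1H2BK, a core histone, rose from 19.7 ± 1.4 to 42.0 ± 0.91 CPM (SD, n = 3 each) and HIST3H2A from 3.16 ± 0.12 to 12.4 ± 0.72 CPM. HIST1H2AC, HIST2H2BE and HIST1H3H rose by 1.03, 1.62 and 1.82 on the log2 scale.

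Histone genes together took 0.00555 to 0.00631% of all counts in the controls and 0.0129 to 0.0131% after OTUD1 siRNA. RN7SK, RN7SL1, RMRP, RPPH1 and SCARNA2 were at 0 in every library. HIST1H4C, HIST1H1B and HIST1H3B, histone genes of the S phase, had 0 to 7 counts in a library. The part of RNA selection in the rise of NEAT1 was not tested. RN7SL2, a signal recognition particle RNA with near-identical copies and so an uncertain count, stood at 12.1, 7.38 and 3.45 CPM in the controls and at 3.01, 8.49 and 8.72 CPM after OTUD1 siRNA. Its lowest library in each group, control replicate 3 and OTUD1 siRNA replicate 1, was also the lowest for MALAT1, which was noticed after the values were seen.

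Among 33 other proteins placed in paraspeckles, 21 fell, 4 rose and 8 did not pass the test, against 31.1% lower and 29.3% higher among all genes tested. Their median log2 fold change was -0.30 (all genes tested: 0.01), which shrank to -0.17 with library totals and -0.20 after quantile normalization. HNRNPR, an hnRNP protein, fell 2.19-fold, from 207 ± 5.1 to 94.5 ± 2.9 CPM (SD, n = 3 each; adjusted p = 2.83e-20, edgeR). HNRNPUL1 and RBMX, both binders of nuclear RNA, were 1.78-fold and 1.68-fold lower, and RBM7, a part of the complex that brings RNA to the exosome, was 1.39-fold higher. With library totals 8 of the list rose in place of 4.

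Nuclear speckle proteins, the neighbours of MALAT1 RNA, had a similar median of -0.29. Of 21 tested, 17 fell, 2 rose and 2 did not pass (all genes tested: 31.1% fell and 29.3% rose), and the median was -0.17 with library totals. SRSF7, a splicing factor of the SR family, was 1.66-fold lower at 147 ± 3.7 against 244 ± 8.1 CPM, and U2AF2, which reads the polypyrimidine tract at 3′ splice sites, was 1.62-fold lower. The scaffold proteins SRRM1 and SRRM2 were 1.54-fold and 1.41-fold lower, while RNPS1, a part of the exon junction complex, was 1.27-fold higher. Without control replicate 2, 1 member rose in place of 2.

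A list of factors for the 3′ ends of NEAT1 and MALAT1 held 23 proteins. METTL3 and METTL14 are on it beside METTL16, while NUDT21 and CPSF6 are counted with the other paraspeckle proteins. The counts therefore describe this list only. Of the 23 listed, 9 fell, 3 rose and 11 did not pass the test, where 31.1% of all genes tested fell and 29.3% rose. The median log2 fold change was -0.09 and became 0.04 with library totals. METTL16, the methyltransferase that binds the MALAT1 triple helix, fell from 45.3 ± 1.3 to 27.4 ± 0.95 CPM (SD, n = 3 each), 1.65-fold lower (adjusted p = 2.28e-11, edgeR). CSTF2 and CPSF2, which act at poly(A) sites such as that of the short NEAT1 form, were 1.74-fold and 1.32-fold lower. RNase P makes the cut at the end of the long form. Of its listed subunits POP1, POP4 and POP7 fell, with log2 fold changes of -0.58, -0.23 and -0.19, and the groups overlapped for POP7. POP5 and RPP40 rose, by 0.34 and 0.29, and RPP14, RPP25, RPP30 and RPP38 did not pass the test.

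Of 9 regulators named for NEAT1 transcription or for the use of paraspeckles, 6 fell, 2 rose and 1 did not pass (all genes tested: 31.1% fell and 29.3% rose). The median log2 fold change was -0.19, which was -0.06 with library totals and -0.03 after quantile normalization. HSF1, the heat shock factor, was 1.56-fold lower, from 92.4 ± 6.1 to 59.1 ± 2.3 CPM (SD, n = 3 each; adjusted p = 6.86e-12, edgeR). The hypoxia factors EPAS1, an activator of NEAT1, and HIF1A were 1.14-fold and 1.15-fold lower. STAU1, which binds RNAs with inverted Alu repeats, was 1.31-fold lower, and CARM1, a methyltransferase that modifies NONO, was 1.27-fold higher. The count of decreases was 2 with library totals and 3 after quantile normalization.

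Of 28 other long non-coding RNAs listed, 25 were tested, and 11 rose, 6 fell and 8 did not pass (all genes tested: 29.3% rose and 31.1% fell). The median log2 fold change was 0.14, and 0.27 with library totals. MEG3, an imprinted RNA, rose from 45.8 ± 0.26 to 105 ± 2.7 CPM (SD, n = 3 each), 2.29-fold higher, and OIP5-AS1 fell from 53.9 ± 1.3 to 28.1 ± 1.3 CPM, 1.92-fold lower. TUG1 and NORAD rose 1.34-fold and 1.28-fold, and SNHG15 was 1.48-fold lower. With library totals 3 of these RNAs fell in place of 6.

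**Figure D4:**
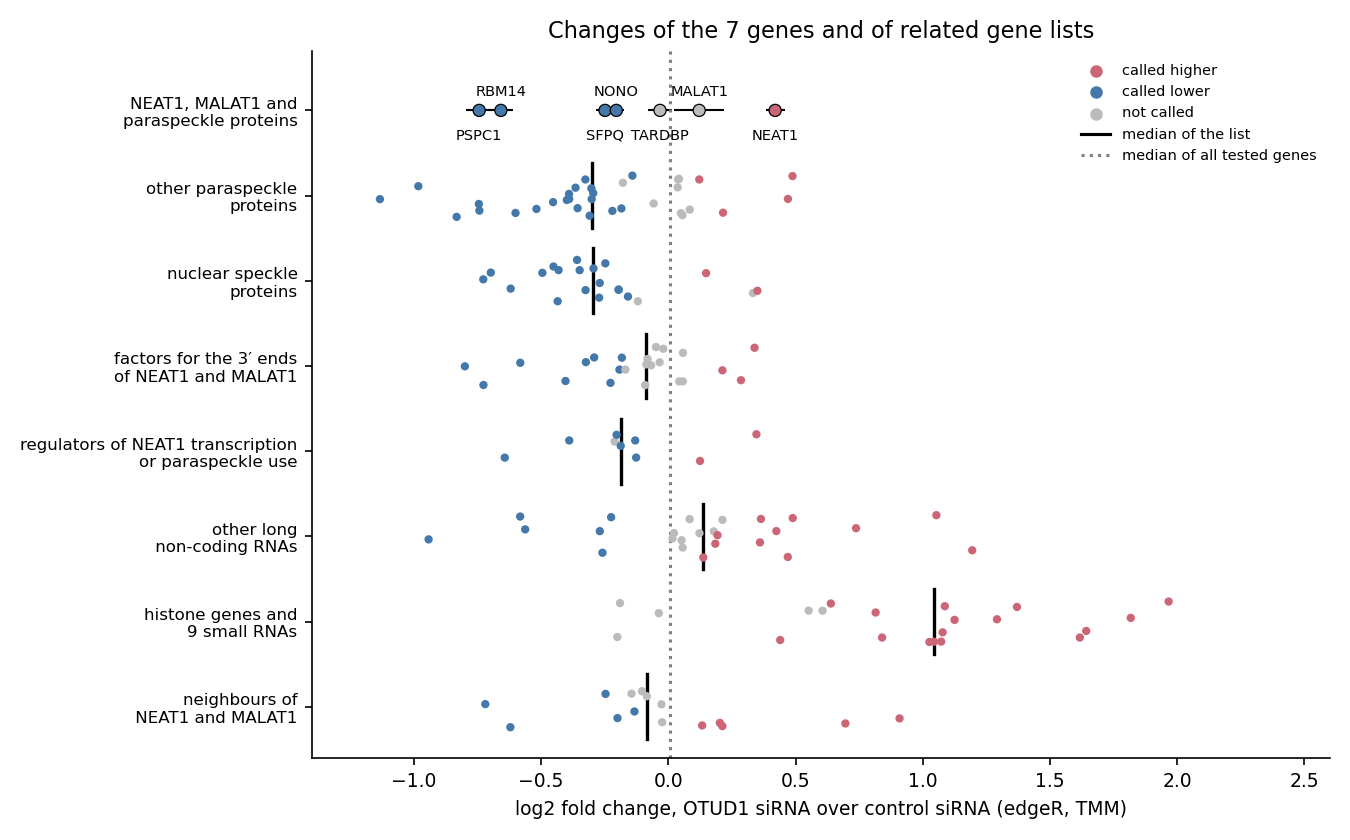
Log2 fold change (horizontal axis, OTUD1 siRNA over control siRNA) of the 7 genes, with SE bars, and of the tested genes of 7 lists, with TMM scaling. Points are genes coloured by call, black lines are list medians and the dotted line is the median of all tested genes. Paraspeckle and speckle proteins have medians of -0.30 and -0.29, and the list of histone genes and small RNAs a median of 1.04; NONO, TARDBP and the medians for 3′ end factors and neighbours change sign under another scaling.

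Around NEAT1 and MALAT1 on chromosome 11, 15 of the 18 listed neighbouring genes with a value in the table had enough counts to test. Of these 5 rose, 5 fell and 5 did not pass, close to the 29.3% and 31.1% of all genes tested. The median log2 fold change of -0.08 became 0.04 with library totals, with which 2 neighbours fell in place of 5, as against 3 after quantile normalization. FRMD8, whose start lies at -36.2 kb from that of NEAT1, had a log2 fold change of -0.03 (adjusted p = 0.722, edgeR). AP000769.1, a pseudogene outside the list, lies between NEAT1 and MALAT1, 32.5 kb from the start of NEAT1. It stood at 3.35 CPM in the controls and 4.27 CPM after OTUD1 siRNA, a log2 fold change of 0.35. Its groups did not overlap, but it did not pass the test (adjusted p = 0.0792, edgeR). SLC25A45, a mitochondrial carrier gene, was 1.62-fold higher, at 14.7 ± 0.49 against 9.08 ± 0.33 CPM (SD, n = 3 each).

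Further out, PCNX3 rose 1.88-fold, from 38.6 ± 0.97 to 72.4 ± 1.5 CPM (SD, n = 3 each), and RELA, a subunit of NF-kappa-B, was 1.65-fold lower, from 115 ± 2.9 to 70.1 ± 3.6 CPM. POLA2, a subunit of the DNA polymerase alpha primase, was 1.54-fold lower, and LTBP3, a binder of latent TGF-beta, was 1.19-fold lower.

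**Figure D5:**
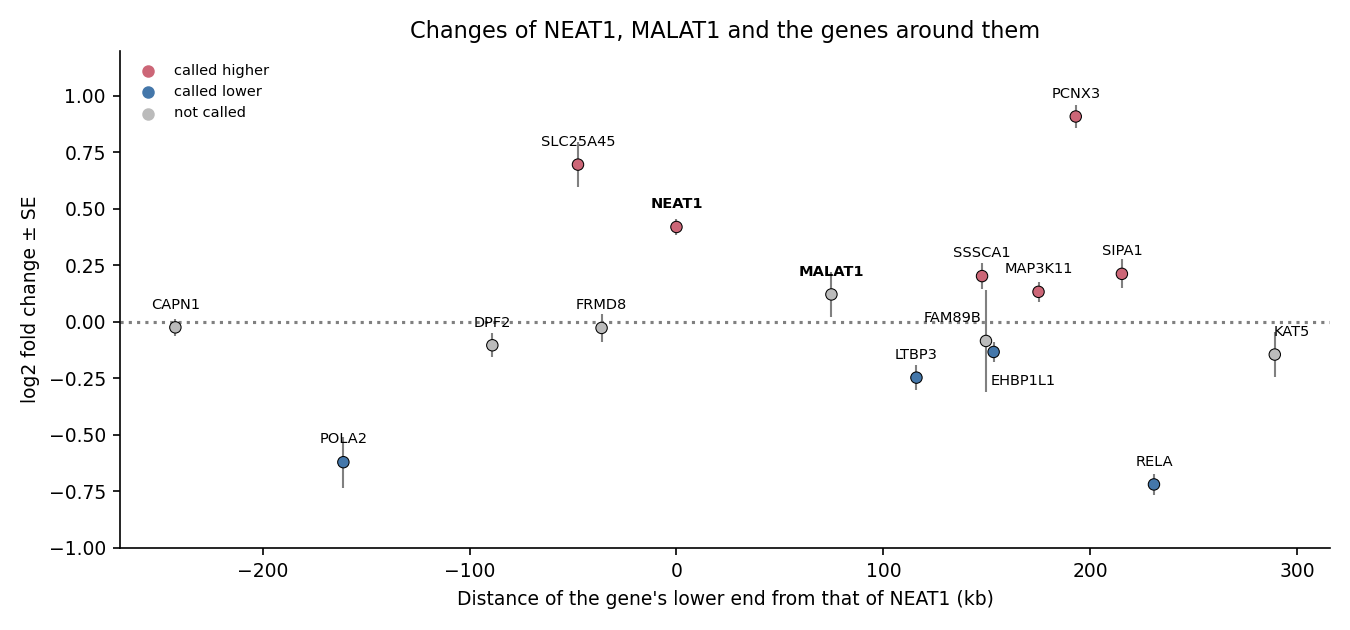
Log2 fold change with SE (vertical axis) of NEAT1, MALAT1 and 14 neighbouring genes against the distance of each gene's lower end from that of NEAT1 in kb (horizontal axis), coloured by call, with TMM scaling. NEAT1 at 0.42 lies between FRMD8 at -0.03 and MALAT1 at 0.12, neither of which passed the test. AP000769.1, which lies between NEAT1 and MALAT1, is not shown.

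By profile over the 6 libraries, the genes most like NEAT1 among 9689 with a mean of at least 10 CPM were OFD1, ZNF316 and SMUG1, with a root mean square difference of 0.0145, 0.0307 and 0.0355 on the log2 scale. Those most like MALAT1 were COQ7, SCYL3 and TFB1M, at 0.106, 0.133 and 0.14. The distances of MALAT1 to its nearest genes were larger, and COQ7 shared its low value in control replicate 3 (8.29 CPM, against 12.0 and 11.2 in the other controls). These 6 libraries fall into 2 groups, so a likeness to NEAT1 mostly reflects a like difference between groups. That reading does not extend to MALAT1, COQ7 and SCYL3, which did not pass the test (adjusted p = 0.296, 0.560 and 0.515, edgeR). TFB1M did pass, with a log2 fold change of 0.23 (adjusted p = 0.0222, edgeR). COQ7 was picked for its like profile, so the low value it shares with MALAT1 follows from that choice.

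The start regions of 4 of the protein genes are shown because PSPC1 and RBM14 fell most, NONO less and TARDBP not detectably. RefSeq windows on GRCh38.p14 run from 250 bases before to 50 bases after the start, and 5 of the 7 genes had one. Capitals mark GCCATNTT (a YY1-type motif) and CCAAT on either strand, chosen after the sequences had been seen. The windows are chr13:19782896-19783195 (PSPC1, - strand), chr11:66616380-66616679 (RBM14, + strand), chrX:71283385-71283684 (NONO, + strand) and chr1:11012404-11012703 (TARDBP, + strand).
PSPC1: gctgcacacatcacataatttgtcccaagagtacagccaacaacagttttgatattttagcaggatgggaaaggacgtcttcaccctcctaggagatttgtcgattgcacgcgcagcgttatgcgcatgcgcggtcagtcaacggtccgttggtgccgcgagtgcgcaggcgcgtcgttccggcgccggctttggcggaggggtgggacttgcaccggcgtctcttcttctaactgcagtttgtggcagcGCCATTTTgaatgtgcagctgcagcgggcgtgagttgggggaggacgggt
RBM14: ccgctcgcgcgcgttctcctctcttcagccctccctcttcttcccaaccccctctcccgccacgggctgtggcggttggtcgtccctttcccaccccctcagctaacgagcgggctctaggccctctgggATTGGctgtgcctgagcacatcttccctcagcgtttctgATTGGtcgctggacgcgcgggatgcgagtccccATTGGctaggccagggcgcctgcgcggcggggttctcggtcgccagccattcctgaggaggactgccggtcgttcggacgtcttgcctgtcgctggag
NONO: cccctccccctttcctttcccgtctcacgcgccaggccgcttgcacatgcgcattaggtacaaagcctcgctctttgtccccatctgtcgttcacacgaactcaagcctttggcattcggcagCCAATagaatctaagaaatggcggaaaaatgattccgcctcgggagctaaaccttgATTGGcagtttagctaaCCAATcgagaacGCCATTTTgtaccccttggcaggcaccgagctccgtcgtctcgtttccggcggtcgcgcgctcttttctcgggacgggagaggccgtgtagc
TARDBP: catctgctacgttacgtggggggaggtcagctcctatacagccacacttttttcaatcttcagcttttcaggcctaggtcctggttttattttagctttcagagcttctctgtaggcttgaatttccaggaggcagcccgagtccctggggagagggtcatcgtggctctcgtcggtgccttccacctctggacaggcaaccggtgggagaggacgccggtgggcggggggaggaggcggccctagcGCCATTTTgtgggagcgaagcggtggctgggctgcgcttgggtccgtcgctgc
GCCATNTT occurred once each in the PSPC1, NONO and TARDBP windows and in 6.58% of 35093 windows. CCAAT occurred 3 times each in the RBM14 and NONO windows and in 34.6% of all windows. GGGCGG (a GC box), searched on both strands and not marked above, occurred in the TARDBP window, was not among the letters of the PSPC1, RBM14 and NONO windows, and occurred in 44.9% of all windows. An NRF1-type motif was also searched and is not reported here. A match, or its lack, describes the letters of these windows only, and binding was not measured.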

How the data were processed

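Per the labels' protocols, Trizol was used for the RNA and a strand-keeping NEBNext kit for the libraries. The build hg38 is named in the submitters' processing notes. The aligner, counting tool, strand setting, annotation and RNA selection were not given in the sources used here. The deposited values are whole-number counts per gene symbol, although the table's name speaks of FPKM, and the authors' counts were used unchanged. Of 58735 genes in the table, 30560 had no count in any library and 1745 shared a symbol.

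The test was the quasi-likelihood test of edgeR 4.0.16 (glmQLFTest, two-sided) in R 4.3.3, with TMM scaling, Benjamini-Hochberg adjustment and a threshold of 0.05. The filter filterByExpr, with its minimum of 10 counts in 3 libraries and a total of 15, left 15244 genes. Normalization factors were 0.955 to 0.957 for control siRNA and 1.045 to 1.046 for OTUD1 siRNA. The biological coefficient of variation was 3.78%. The scripts were tested on simulated data. Alternatives used limma 3.58.1, DESeq2 1.42.0, other scalings and filters, a replicate block and leaving out each library.

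The 7 genes and the 7 lists were chosen with earlier results of these data known. Named from each list were up to 5 called genes with the smallest adjusted p, including 1 from each direction where there was one, beside all 7 members, OTUD1 and, for NEAT1 and MALAT1, the 3 genes nearest in profile. MATR3 and U2AF1 in the lists have uncertain counts because of near-identical or overlapping genes. FRMD8 and AP000769.1, for their position, and the RNase P subunits other than POP1 and POP5 were named after their values were seen. Not every gene taken by these criteria is reported here. Coordinates and transcripts come from GENCODE 29, and sequences were read with Python 3.11.15.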

Additional observations from a re-analysis of the deposited data

How the results depend on the processing

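NEAT1, SFPQ, PSPC1 and RBM14 kept their direction and their side of the threshold under all 14 alternatives, with log2 fold changes of 0.39 to 0.57, -0.27 to -0.09, -0.78 to -0.61 and -0.69 to -0.53. NONO was 0.0098 after quantile normalization and lower under the other 13. TARDBP passed under none, and its sign turned with library totals (0.0965), after quantile normalization (0.0746), with a mean of at least 5 CPM (0.0153) and without control replicate 1, within a leave-one-out range of -0.0532 to 0.0072. MALAT1 was 0.25 with library totals, and -0.0665 (without control replicate 3) to 0.2381 (without control replicate 2) on leaving out a library. The number of members called higher was 2 with library totals and ranged from 1 to 2 when a library was left out, MALAT1 being added without control replicate 2. With library totals the median became 0.0425 for the 3′ end factors and 0.0443 for the neighbours. The cause of these changes was not tested.

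Among the regulators 1 gene in place of 2 rose without a filter, and on leaving out control replicate 1 or 3, or replicate 2 or 3 of OTUD1 siRNA. Of the other paraspeckle proteins 7 rose after quantile normalization. With a mean of at least 5 CPM 5 of the histone genes and small RNAs rose, since fewer were tested, and 1 fell without a filter and without control replicate 2 or any of the OTUD1 siRNA libraries.

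Titles number the libraries of both groups 1 to 3. Deviations from the group means correlated by 0.0173, 0.149 and 0.0013 for same-numbered libraries. Control replicate 1 correlated more with OTUD1 siRNA replicate 3 (0.121) than with its own number. With so few libraries these correlations cannot decide whether same-numbered libraries were handled together. With the replicate number as a block, 4484 genes were called higher and 4791 lower, against 4460 and 4746, and the members' counts stayed at 1 and 4. The NEAT1 to MALAT1 difference was 0.27 on the log2 scale with and without the block, and 0.13 to 0.48 with a library left out. Precision is set by 3 libraries a group, and small changes such as those of SFPQ and NONO lie near the size of the shift between scalings.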
